A study of Mus musculus with 96 samples.

Results

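The 6 genes described here belong to the muscle wasting programme and were followed across 7 mouse tissues: the ubiquitin ligases Trim63 (MuRF1) and Fbxo32 (atrogin-1), the forkhead transcription factors Foxo1, Foxo3 and Foxo4, and the secreted growth inhibitor Mstn (myostatin). They were chosen by name, and all 6 were found among the 56941 gene rows of the count table, which covers 96 libraries. RNA was sequenced from skeletal muscle (15 libraries), heart (14), brain (15), kidney (15), liver (15), small intestine (15) and spleen (7) of mice aged 2 months. The animals were of the reprogrammable strains 4Fj, 4FsB, 4Fk and 4FsA, bred for inducing reprogramming factors in the body, or were WT. The labels name no inducing agent, no driver line, no sex and no particular muscle. Each muscle group of a genotype had 3 samples, as did each heart group except WT heart with 2. A library is named in the count table by its tissue code with a serial number, without its genotype, so the strains were not compared, and each tissue pools its genotypes. Spleen holds WT (3), 4FsA (3) and 4Fj (1) samples alone, so muscle and spleen pool different genotypes.

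In muscle, FoxO factors enter the nucleus when insulin and Akt signalling is low and switch on genes of protein breakdown. Trim63 and Fbxo32 are among the best known of these: Trim63 is a RING-type ligase of the sarcomere that marks thick filament proteins for the proteasome, and Fbxo32 is the substrate-binding part of an SCF ligase. Glucocorticoids, fasting, disuse and denervation are textbook inducers of both. Mstn, a TGF-beta family ligand made by muscle fibres, limits muscle mass through activin type II receptors and Smad2/3.

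The sequence upstream of Trim63 is shown because its level varied with that of Foxo1 and Foxo3. That of Mstn is shown because in CPM it alone separated every muscle library from every heart library. Both are the 250 bases before the start site, from RefSeq on GRCm38.p6, at chr4:134314870-134315119 and chr1:53061390-53061639, both on the plus strand. In the Trim63 sequence, capitals mark a FoxO core (GTAAACA or its reverse complement TGTTTAC) and a glucocorticoid receptor half-site (AGAACA or TGTTCT). In the Mstn sequence they mark E-boxes (CANNTG), the short motif that myogenic bHLH factors bind.

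Trim63: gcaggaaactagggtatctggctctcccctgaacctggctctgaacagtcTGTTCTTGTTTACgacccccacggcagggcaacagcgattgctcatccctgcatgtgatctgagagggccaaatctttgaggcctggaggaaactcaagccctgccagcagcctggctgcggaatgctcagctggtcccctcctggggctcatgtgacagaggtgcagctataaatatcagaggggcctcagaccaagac

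Mstn: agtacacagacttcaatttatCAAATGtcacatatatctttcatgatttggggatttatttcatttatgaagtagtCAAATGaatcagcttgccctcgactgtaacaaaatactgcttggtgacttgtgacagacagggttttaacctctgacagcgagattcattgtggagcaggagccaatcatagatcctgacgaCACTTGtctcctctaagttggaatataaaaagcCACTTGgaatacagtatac

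The 2 Trim63 motifs lie directly side by side, the glucocorticoid receptor half-site at position -200 and the FoxO core at -194 from the start site. Among 32851 promoters searched on both strands, 3.65% held the FoxO core, 19.0% the glucocorticoid receptor motif, 0.877% both, and 5 promoters held both side by side. The side by side arrangement of FoxO core and half-site was searched for after it had been seen here. The Trim63 window also held 3 E-boxes and 2 SMAD boxes (CAGAC or GTCTG). The Mstn window held 4 E-boxes and 2 SMAD boxes, and neither a FoxO core nor a glucocorticoid receptor half-site. Of all promoters, 72.3% held an E-box and 49.6% a SMAD box. The Foxo1 window held 1 E-box and 1 shorter FoxO motif (TGTTT or AAACA, which also lies within the longer core and was found in 50.5% of promoters), and the Foxo3 window held none of the motifs. These are matches of letters in windows of 300 bases, 250 before and 50 after the start site, and say nothing of binding.

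Library totals ran from 9204513 to 17706733 estimated counts in muscle and from 9168080 to 13827205 in heart. Levels are given as CPM, estimated counts scaled to the same total in every library. The labelled tissues carried their defining genes. The 14 fast fibre genes summed to 138450 to 269684 CPM in muscle and to 1285 to 3408 CPM in heart, and the 16 cardiomyocyte genes to 103 to 764 CPM in muscle and to 28496 to 53546 CPM in heart. Mitochondrially encoded genes took 4.67% to 43.4% of the counts in muscle and 29.6% to 40.2% in heart. Muscle libraries 10, 11 and 12 stood apart, with more than 5000 CPM of Trim63. Values without them are given beside results within muscle or against heart that they move. The numbers 10, 11 and 12 follow one another, and the column names do not say whether these libraries share a genotype. The labels do not say whether the libraries of a group come from different mice, so p-values measure the spread between these libraries, genotypes pooled. In bulk tissue, fewer cells of a type and less RNA per cell cannot be told apart.

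**Figure D1:**
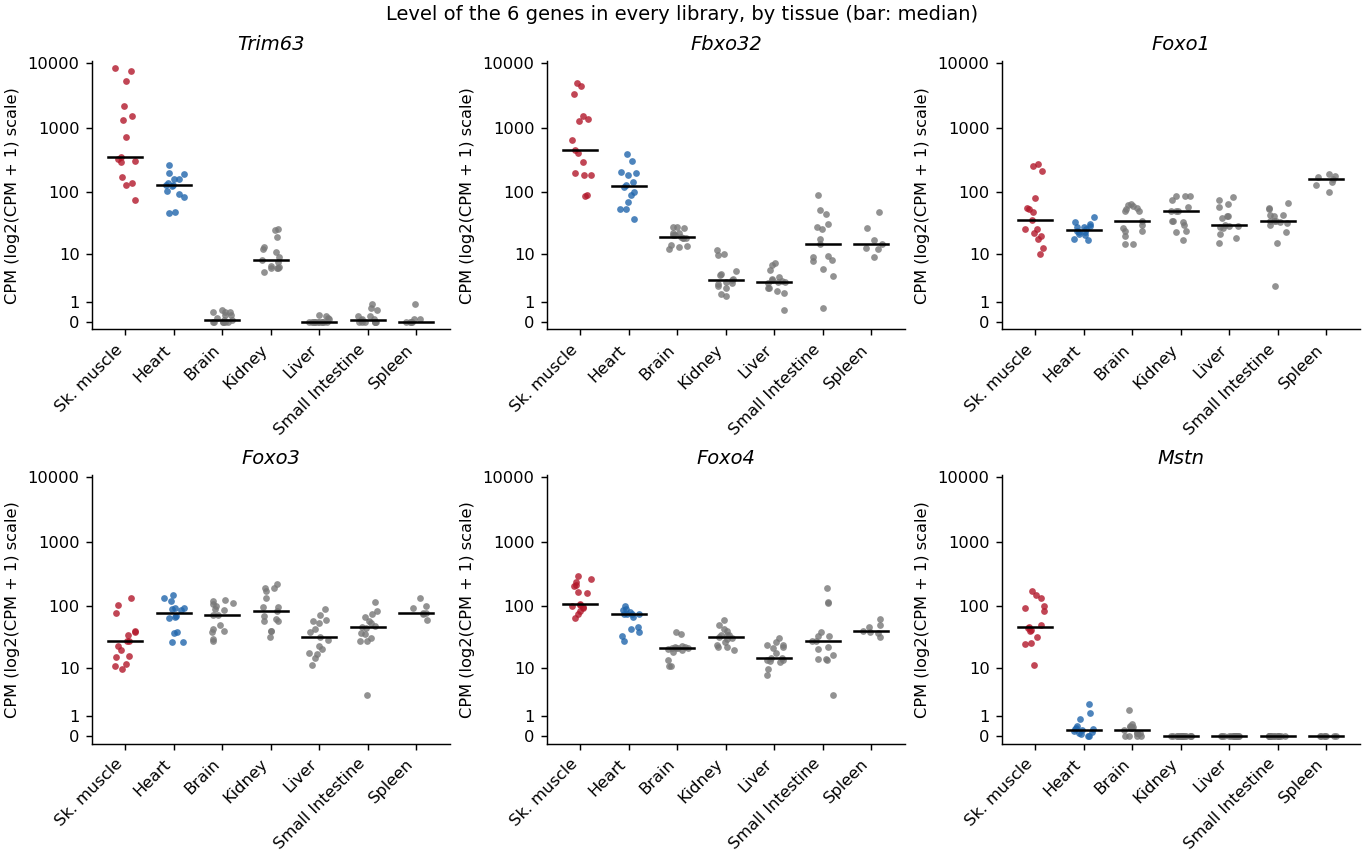
Level of each gene in every library by tissue, as CPM on a log2(CPM + 1) axis; each point is a library and the bar is the tissue median. Trim63 and Fbxo32 are highest in muscle and then heart, Mstn is above 11 CPM in all 15 muscle libraries and at or below 2.1 CPM in heart, Foxo1 has its highest median in spleen, and Foxo3 its lowest in muscle.

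Trim63 was highest in muscle and then heart. It ranged from 76.2 to 8310 CPM in the 15 muscle libraries with a median of 348 CPM, and from 46.5 to 266 CPM in the 14 heart libraries with a median of 130 CPM. In 11 of 15 muscle libraries the level was above that of every heart library, and the other 4 lay within the heart range. Kidney came next with a median of 8.13 CPM (4.82 to 26.7 CPM), below every heart library and above every library of the remaining tissues. No library of brain, liver, small intestine or spleen reached 1 CPM, and the gene was listed at 0 in 6 of 15 brain, 11 of 15 liver, 7 of 15 small intestine and 4 of 7 spleen libraries. A count of 0 in the shallowest of those libraries allows up to 0.308 CPM in brain, 0.365 CPM in liver, 0.322 CPM in small intestine and 0.413 CPM in spleen (3 counts, counting error only).

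Fbxo32 was also present outside striated muscle. It ranged from 86.3 to 4945 CPM in muscle with a median of 453 CPM, and from 37.5 to 390 CPM in heart with a median of 125 CPM. In 9 of 15 muscle libraries it was above every heart library. Brain (median 19.7 CPM), spleen (15.2 CPM) and small intestine (14.9 CPM) followed with ranges that overlapped, and kidney (3.38 CPM) and liver (3.10 CPM) were lowest and also overlapped. Small intestine was the most uneven of these, from 0.627 to 89.6 CPM, and without its highest and lowest libraries the limits were 4.15 and 53.1 CPM. Mitochondrially encoded genes took 4.32% to 78.8% of the counts in small intestine. With those genes left out of the total, Fbxo32 ran from 2.96 to 93.8 CPM there.

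Foxo1, a forkhead factor known for its part in fasting metabolism, had its highest median in spleen. Its median was 37.0 CPM in muscle (10.1 to 271 CPM) and 24.9 CPM in heart (17.5 to 40.3 CPM), against 162 CPM in spleen (99.9 to 192 CPM). Spleen lay above every library of kidney, the next in order. The medians of kidney (49.7 CPM), muscle, brain (35.5 CPM), small intestine (35.3 CPM), liver (30.5 CPM) and heart followed one another with overlapping ranges. In 7 of 15 muscle libraries Foxo1 was above every heart library and in 2 below every one. With TMM scaling the order was spleen (91.8 CPM), muscle (60.2 CPM), liver (42.1 CPM), kidney (40.0 CPM), small intestine (36.3 CPM), heart (27.8 CPM) and brain (22.9 CPM), and muscle overlapped spleen. In CPM they overlapped as well, and libraries 10, 11 and 12 lay above every spleen library.

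Foxo3, which drives autophagy and both ligases in mouse muscle, had its lowest median in muscle. It ranged from 9.72 to 135 CPM in muscle with a median of 28.2 CPM, and from 27.0 to 152 CPM in heart with a median of 78.8 CPM. In 7 of 15 muscle libraries it was below every heart library, and no muscle library was above the highest heart library. Kidney had the highest median (85.4 CPM), then spleen (79.5 CPM), heart, brain (72.9 CPM), small intestine (46.6 CPM) and liver (33.0 CPM), each overlapping its neighbour. With TMM scaling heart was highest (91.3 CPM) and muscle still lowest (36.6 CPM).

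Foxo4, a smaller forkhead factor encoded on the X chromosome, had its highest median in muscle. It ranged from 65.9 to 294 CPM in muscle with a median of 110 CPM, and from 28.7 to 100 CPM in heart with a median of 75.8 CPM. In 9 of 15 muscle libraries it was above every heart library. Spleen (40.6 CPM), kidney (33.1 CPM), small intestine (27.9 CPM), brain (21.7 CPM) and liver (15.1 CPM) followed, each overlapping its neighbour. With TMM scaling, the lowest muscle library (123 CPM) was above the highest heart library (109 CPM).

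Mstn was a muscle transcript in these tissues. It ranged from 11.5 to 172 CPM in muscle with a median of 47.7 CPM, and from 0 to 2.10 CPM in heart with a median of 0.243 CPM. Brain reached at most 1.52 CPM, and all libraries of kidney, liver, small intestine and spleen were at 0. Set against the limit of 3 counts in the shallowest library of each, the muscle median was at least 105-fold higher than in kidney, 131-fold than in liver, 148-fold than in small intestine and 116-fold than in spleen.

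Skeletal muscle was then compared with heart, the other striated muscle, across all genes with edgeR's quasi-likelihood test. Of 13064 genes tested, 63.7% were called at an adjusted p under 0.05, 30.5% higher in muscle and 33.2% lower. Of the 6 members, Trim63, Fbxo32, Foxo1 and Foxo4 were called higher and Foxo3 was not called. Mstn was near 0 in heart and passed the filter on low counts through muscle alone, so its call is not counted here. With library totals in place of TMM scaling, the median log2 fold change of all genes moved from -0.06 to -0.48 and the split from 3984 higher and 4339 lower to 2016 higher and 5971 lower. Trim63, Fbxo32, Foxo1 and Foxo4 were called higher under both scalings.

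Mstn averaged 70.6 CPM in muscle and 0.444 CPM in heart, where its counts ran from 0 to 24. The log2 fold change of 7.78 ± 0.55 (SE) rests on those few counts in heart. In CPM, Mstn was the only member whose groups did not overlap, and 2.76% of the genes tested had every muscle library above every heart library. Trim63 averaged 1909 CPM in muscle and 135 CPM in heart, with a log2 fold change of 4.20 ± 0.62 (edgeR adjusted p = 7.15e-07). Fbxo32 averaged 1293 CPM in muscle and 149 CPM in heart, with a log2 fold change of 3.53 ± 0.56 (edgeR adjusted p = 2.1e-06). Both means lie far above the muscle medians given above.

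Foxo1 averaged 77.0 CPM in muscle and 26.2 CPM in heart (log2 fold change 1.98 ± 0.40, edgeR adjusted p = 6.79e-05). Foxo4 averaged 152 CPM in muscle and 66.0 CPM in heart (log2 fold change 1.61 ± 0.18, edgeR adjusted p = 4.96e-09). Foxo3 averaged 39.7 CPM in muscle and 79.3 CPM in heart, with a log2 fold change of -0.56 ± 0.33 (95% interval -1.22 to 0.11, edgeR adjusted p = 0.136). In CPM all 3 factors have overlapping ranges in the 2 tissues, while with TMM scaling those of Foxo4 did not overlap.

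Without muscle libraries 10, 11 and 12, the log2 fold change was 3.13 for Trim63, 2.79 for Fbxo32 and 1.30 for Foxo1, all still called higher, and Foxo3 was called lower at -0.997 (edgeR adjusted p = 0.00609). The permutation test of the mean difference in log2(CPM + 1) gave 2.46 for Trim63 and 2.27 for Fbxo32, and 0.79 for Foxo1 with a two-sided permutation p of 0.0653. Foxo3 differed by -1.23 there, with a permutation p of 0.0029, and limma-voom gave -0.77 with an adjusted p of 0.0418, so its call depended on the scaling, the test and the 3 libraries.

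The fit of all 7 tissues kept the 3 muscle libraries above 5000 CPM of Trim63. In that fit, Fbxo32, Foxo1 and Foxo4 were called higher in muscle than in brain, kidney, liver and small intestine. Trim63 was called higher than in kidney. Against spleen, whose genotypes differ from those of muscle, Fbxo32 and Foxo4 were called higher. The calls of Mstn, at or near 0 in these tissues, and of Trim63, under 1 CPM in all of them but kidney, are not counted here. Among all 20100 genes tested, the share called higher in muscle was 32.3% against brain, 29.2% against kidney, 31.2% against liver, 31.3% against small intestine and 28.4% against spleen. Foxo3 was called in none of these comparisons. The log2 fold change of Foxo3 was 0.25 ± 0.28 (SE) against brain, -0.35 ± 0.28 against kidney, 0.43 ± 0.28 against liver, 0.35 ± 0.28 against small intestine and 0.25 ± 0.36 against spleen.

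The smallest difference of Fbxo32 was against small intestine, 6.65 ± 0.47 (log2 fold change), and its largest against kidney, 9.14 ± 0.52. That of Foxo4 ran from 2.60 ± 0.22 against small intestine to 3.92 ± 0.24 against brain. Foxo1 was higher by 1.33 ± 0.29 against liver and 2.15 ± 0.30 against brain, and was not called against spleen (0.43 ± 0.36, edgeR adjusted p = 0.303). On library totals the direction of Foxo1 against spleen turned to -1.002 and Foxo3 turned to -0.92 against brain, -0.36 against small intestine and -1.17 against spleen, and all but that against small intestine were then called lower (edgeR adjusted p = 0.0169, 0.00851 and 0.00541). Against kidney, Foxo3 was then called lower too (-1.38, edgeR adjusted p = 0.000142), and Foxo1 lost its call (0.63, edgeR adjusted p = 0.074). The share of calls that were higher in muscle was 45.2% to 48.0% in the 5 comparisons with TMM scaling and 15.5% to 34.9% with library totals.

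Levels of different genes were set side by side per kilobase of annotated exon. Trim63 was above Fbxo32 in 15 of 15 muscle libraries, with medians of 122 and 64.9 CPM per kilobase. It was above it in 14 of 14 heart libraries too, with medians of 45.9 and 17.9 CPM per kilobase. Among the FoxO factors, Foxo4 was above both Foxo1 and Foxo3 in all muscle and all heart libraries. Its median was 31.6 CPM per kilobase in muscle, beside 4.28 for Foxo1 and 3.73 for Foxo3, and 21.8 CPM per kilobase in heart, beside 2.87 for Foxo1 and 10.4 for Foxo3.

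The balance of the FoxO factors differed between the striated tissues on a measure that no library scaling can change. The ratio of Foxo4 to Foxo3 counts ran from 1.99 to 9.37 in muscle (median 6.58) and from 0.5 to 1.44 in heart (median 0.820), with no overlap. The ratio of Foxo1 to Foxo3 counts ran from 0.626 to 3.20 in muscle (median 1.58) and from 0.231 to 0.849 in heart (median 0.338), and was above 1 in 12 of 15 muscle and 0 of 14 heart libraries. These ratios were chosen after the levels had been seen and were not tested. The ratio of Trim63 to Fbxo32 counts overlapped, 0.659 to 1.87 in muscle (median 1.09) and 0.441 to 2.39 in heart (median 1.03).

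**Figure D2:**
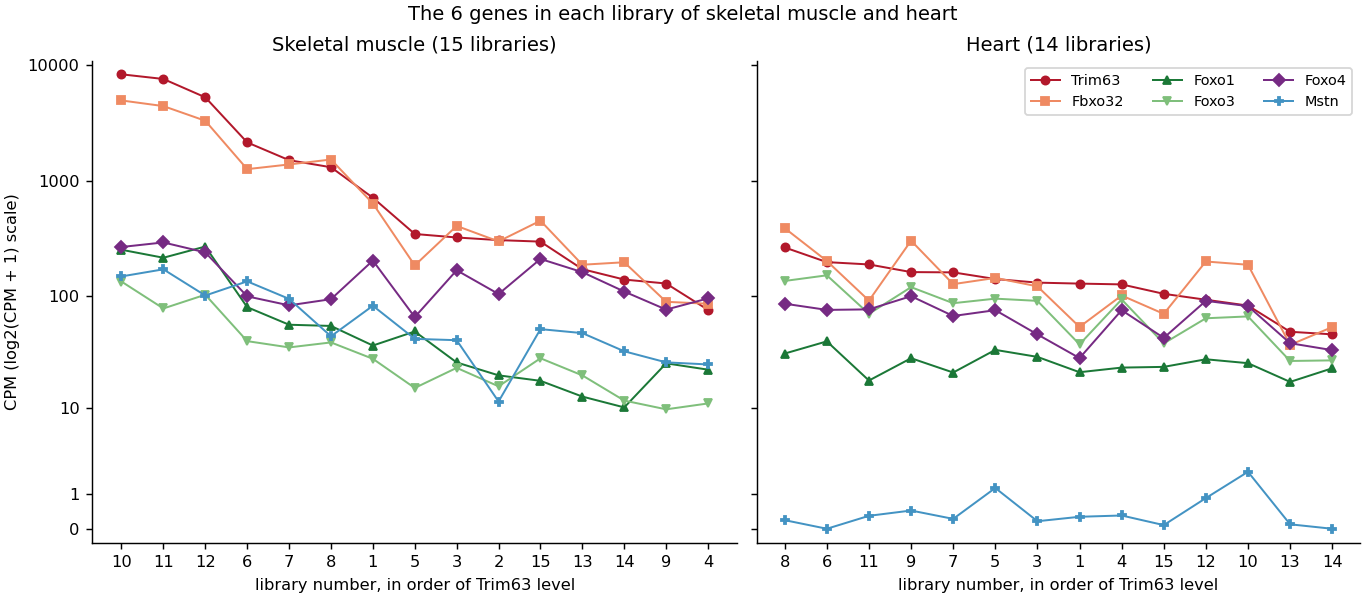
The 6 genes in each of 15 muscle libraries (left) and 14 heart libraries (right), sorted by Trim63; the vertical axis is CPM on a log2(CPM + 1) scale and numbers below are the running numbers of the libraries. In muscle Trim63 spans 76.2 to 8310 CPM with Fbxo32 close beside it and Foxo4 between 65.9 and 294 CPM; in heart Trim63 spans 46.5 to 266 CPM.

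Trim63, Fbxo32, Foxo1 and Foxo3 varied more among the 15 muscle libraries than among heart libraries in CPM, without mitochondrially encoded genes and with TMM scaling. The SD of log2(CPM + 1) of Trim63 was 2.21 in muscle and 0.71 in heart, and its highest library was 109 times its lowest in muscle and 5.71 times in heart. For Fbxo32 the SD was 1.94 in muscle and 0.97 in heart, and for Foxo1 it was 1.49 in muscle and 0.33 in heart. For Foxo3 it was 1.12 in muscle and 0.80 in heart, and for Mstn 1.07 in muscle and 0.47 in heart. Mstn lay between 0 and 2.10 CPM in heart, where the pseudocount of 1 holds the SD down, so its values in the 2 tissues cannot be compared. For Foxo4 it was 0.70 in muscle and 0.58 in heart, but 0.43 in muscle and 0.58 in heart with TMM scaling, and 0.50 in muscle and 0.53 in heart without mitochondrially encoded genes. Much of the muscle spread came with libraries 10, 11 and 12. Over the other 12 the SD in CPM was 1.52 for Trim63, 1.44 for Fbxo32 and 0.89 for Foxo1, still above heart. It was 0.69 for Foxo3 and 0.55 for Foxo4, below heart, and 0.92 for Mstn. The highest of the 12 was 28.2 times the lowest for Trim63, 17.7 times for Fbxo32 and 7.95 times for Foxo1.

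Libraries 10, 11 and 12 held 8310, 7575 and 5263 CPM of Trim63 and 4945, 4421 and 3303 CPM of Fbxo32. The next highest muscle library, number 6, held 2149 CPM of Trim63 and 1263 CPM of Fbxo32. Libraries 10, 11 and 12 also held the 3 highest levels of Foxo1 (254, 217 and 271 CPM, the next 80.5 CPM), of Foxo3 (135, 78.4 and 103 CPM, the next 40.5 CPM) and of Foxo4 (268, 294 and 241 CPM, the next 211 CPM). For Mstn the same libraries held 149, 172 and 102 CPM, and library 6 held 135 CPM. The same 3 libraries had 7.60%, 6.03% and 9.32% of counts from mitochondrially encoded genes. Their 11 adipocyte genes summed to 1896 to 2403 CPM, and to 289 to 1235 CPM in the other 12. Of that list Fabp4 had the highest muscle median (268 CPM) and Plin4 the highest single value (1311 CPM), both named after their values were seen. Plin4 alone had 1222 to 1311 CPM in the 3 libraries and 105 to 375 CPM in the other 12, and without it the list summed to 649 to 1092 CPM in the 3 and 119 to 1065 CPM in the other 12. The 10 endothelial genes summed to 430 to 657 CPM in the 3 and 157 to 495 CPM in the other 12, and the 9 satellite cell genes to 3946 to 4755 CPM and 2112 to 4963 CPM. Des alone had 2069 to 4876 CPM over all muscle libraries, so the satellite cell sum is mostly Des (named after its values were seen). Heart held 1065 to 3659 CPM of Des, so the sum is no measure of satellite cells. The 10 fibroblast genes summed to 127 to 211 CPM in the 3 and to 112 to 904 CPM in the other 12. The part of these values in the result was not tested.

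Relations between members were computed within a tissue on log2(CPM + 1). Because the 3 libraries form a cluster of their own, muscle relations are given over the other 12. The 63 relations computed were adjusted together, and the permutation tests treat libraries of different genotypes as exchangeable. Of 15 pairs of members, 8 passed in the 12 muscle libraries by Pearson's r (7 by Spearman's rho), and 7 by either in the 14 heart libraries.

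Trim63 and Fbxo32 had a Pearson r of 0.95 over the 12 muscle libraries (Spearman rho 0.84, permutation p = 1e-05 for r, the smallest possible, and 0.00127 for rho, adjusted 0.000126 and 0.00471), and 0.93 without the 2 libraries farthest from the median. Fbxo32 and Foxo3 also had an r of 0.95 (rho 0.93, permutation p = 5e-05 for each, adjusted 0.000394 and 0.000525), and 0.94 without 2 libraries. Trim63 and Foxo3 had an r of 0.90 (rho 0.85, permutation p = 7e-05 and 0.00075, adjusted 0.00049 and 0.00337), and 0.86 without 2 libraries. Of the 3 FoxO factors, Foxo3 had the highest r with each ligase in these libraries, and the difference from Foxo1 was not tested.

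Trim63 and Foxo1 had an r of 0.82 (rho 0.83, permutation p = 0.00156 and 0.00171, adjusted 0.00463 and 0.00567), and 0.67 without 2 libraries. Trim63 and Mstn had an r of 0.71 (rho 0.73, permutation p = 0.00875 and 0.0101, adjusted 0.019 and 0.0255), which fell to 0.44 with a permutation p of 0.203 without 2 libraries and so rests on them. Foxo4 and Trim63 had an r of -0.05 (rho -0.10, permutation p = 0.886 and 0.767, adjusted 0.886 and 0.82), which turned to 0.35 with TMM scaling within muscle (adjusted p = 0.329). Foxo4 was inversely related to the mitochondrially encoded share, with an r of -0.82 (rho -0.84, permutation p = 0.00166 and 0.00112, adjusted 0.00463 and 0.00441), and -0.79 without 2 libraries. CPM divides by a total that includes the mitochondrially encoded counts. With those counts left out of the total, Foxo4 still ran from 110 to 239 CPM over the 12 libraries. The part of that total in the relation of Foxo4 with the share was not tested. The other 5 members did not pass with that share, with r from -0.13 to 0.50.

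In heart, Fbxo32 and Foxo3 had an r of 0.86 (rho 0.81, permutation p = 0.00012 and 0.00073, adjusted 0.000675 and 0.00337), and 0.80 without 2 libraries. Fbxo32 and Foxo4 had an r of 0.85 (rho 0.86, permutation p = 0.00013 and 0.00015, adjusted 0.000675 and 0.00118), and 0.87 without 2 libraries. Trim63 and Foxo3 had an r of 0.83 (rho 0.82, permutation p = 0.00028 and 0.00059, adjusted 0.0011 and 0.0031), and 0.64 without 2 libraries. Trim63 and Fbxo32 had an r of 0.66 (rho 0.61, permutation p = 0.00944 and 0.0226, adjusted 0.0198 and 0.0446), which fell to 0.37 with a permutation p of 0.24 without the 2 libraries farthest out and so rests on them. In heart, 4 members were inversely related to the mitochondrially encoded share, whose counts are again part of the total that CPM divides by. For Fbxo32 r was -0.77 (rho -0.72, permutation p = 0.00063 and 0.00456, adjusted 0.00233 and 0.012), and -0.64 without 2 libraries. For Foxo4 r was -0.76 (rho -0.83, permutation p = 0.00177 and 0.00045, adjusted 0.00465 and 0.00258), and -0.86 without 2 libraries. For Trim63 r was -0.80 (rho -0.66, permutation p = 0.00169 and 0.012, adjusted 0.00463 and 0.029) and for Foxo3 -0.78 (rho -0.63, permutation p = 0.00071 and 0.0175, adjusted 0.00248 and 0.0394). These last fell to -0.35 and -0.50 without 2 libraries (permutation p = 0.259 and 0.0937) and so rest on them. The part of that share in the heart relations was not tested. Whether muscle and heart relations differ was not tested.

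**Figure D3:**
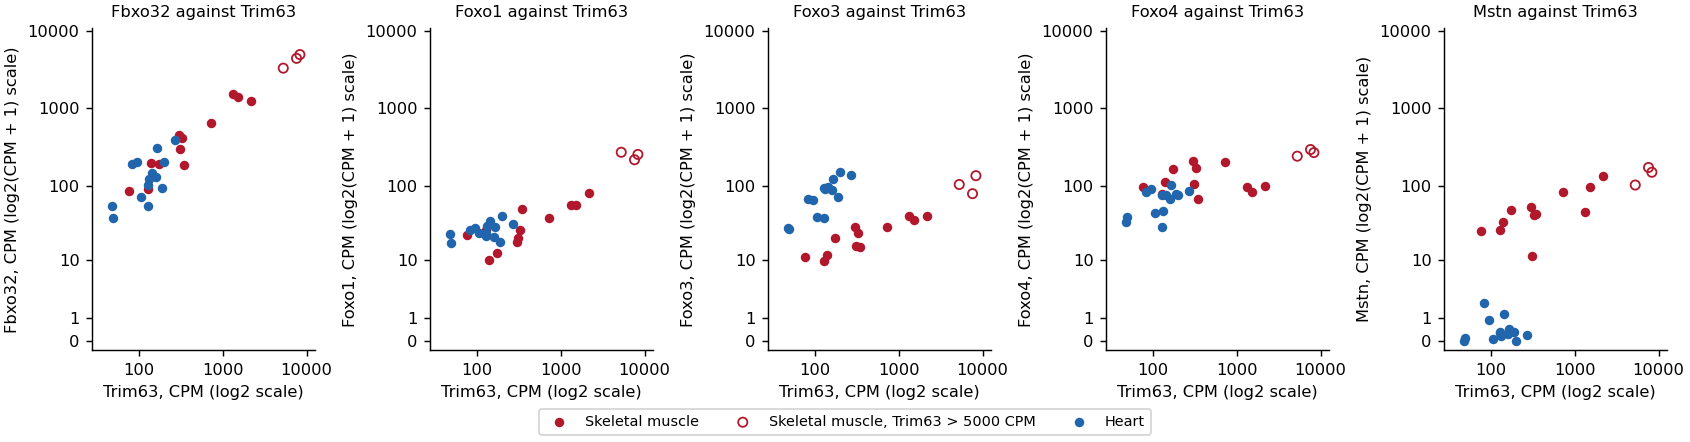
Fbxo32, Foxo1, Foxo3, Foxo4 and Mstn against Trim63 in each library of muscle (red; open circles are libraries 10, 11 and 12, above 5000 CPM of Trim63) and heart (blue), both axes as CPM on a log2(CPM + 1) scale. Over the 12 filled muscle points Pearson's r with Trim63 was 0.95 for Fbxo32, 0.90 for Foxo3 and -0.05 for Foxo4; Mstn in heart stays at or below 2.1 CPM.

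The genes most like Trim63 across the 15 muscle libraries, by Spearman's rho among 8154 named genes with a median of 5 CPM or more, were led by Retreg1 (rho 0.97), a receptor for autophagy of the endoplasmic reticulum, with 39.7 to 3359 CPM. Sesn1 (0.96), a stress-induced inhibitor of mTORC1 signalling, Bnip3 (0.95), a mitophagy receptor, Pnrc1 (0.95), Lrrc30 (0.95), Siah1a (0.95), a RING ubiquitin ligase, Klf15 (0.94), a Krüppel-like factor induced by glucocorticoids, Sorbs3 (0.94), Sdc4 (0.94) and Tcp11l2 (0.93) followed. Among the genes most like Fbxo32 were Gabarapl1 (0.98), an autophagosome protein of the Atg8 family, Ccdc174, Ccng2, a cyclin G family gene, Gnl3 and Nmd3 (0.97 each), Ctxn3 (0.97), Edem1, which acts in degradation of misfolded glycoproteins, Siah1a and Sumo3 (0.96 each). These correlations are descriptions over libraries that share 3 of very high level. Over the other 12, the named genes had a rho of 0.89 to 0.98 with Trim63, the highest for Lrrc30, and of 0.93 to 0.96 with Fbxo32.

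Foxo1 was most like Glul (0.96), the glutamine synthetase gene, Arrdc3 and Trp53inp1 (0.95 each), Mt2, a metallothionein (0.94), and Maff (0.94). Among the genes most like Foxo3 were Dnajb9 (0.98), an endoplasmic reticulum chaperone, and Ccng2, Tfdp2 and Ttll7 (0.97 each). Foxo4 was most like Fbxw2 (1.0), Cul4a, a cullin scaffold of ubiquitin ligases, Ryr1, the sarcoplasmic calcium release channel, and Virma (0.99 each), and Strap (0.99). Mstn was most like Ube2g1 (0.95), a ubiquitin-conjugating enzyme, Pik3r1 (0.95), a regulatory subunit of PI3 kinase, Bach1 (0.94), Taf7 and Ythdf2 (0.93 each). Over the 12 libraries these ran from 0.89 to 0.93 with Foxo1, from 0.94 to 0.97 with Foxo3, from 0.98 to 1.0 with Foxo4 and from 0.87 to 0.94 with Mstn.

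In heart, over 14 libraries and 9707 genes, Trim63 was most like Lrrc2 (0.94), Plin3 (0.91), Fars2 (0.90), Pes1 and Stradb (0.89 each). Fbxo32 was most like Trpc4ap (0.98), Ptp4a1, Cited2 (0.96 each), and Fbxo31 and Tcp11l2 (0.94 each). Foxo1 was most like Slc40a1 and Vps50 (0.89 each), Foxo3 like Jup (0.94), the plakoglobin gene of the cell junction, and Foxo4 like Pnpla2 (0.98), the adipose triglyceride lipase, and Myh14 (0.97). Mstn in heart was near 0 and its rho with the nearest, Mid1ip1 and Slc38a2 (0.89 each), rests on few counts.

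The genes of 7 related lists were counted in the muscle and heart comparison, beside 30.5% of all genes called higher and 33.2% lower. Of 23 muscle ubiquitin ligase genes, 15 were higher in muscle, 2 lower and 6 not called, with a median log2 fold change of 0.90 against -0.06 over all genes tested. Besides the 2 members, the largest differences were those of the Kelch adaptors of Cul3 ligases Klhl40 (3.02 ± 0.27 (SE), edgeR adjusted p = 3.87e-11), Klhl41 (2.58 ± 0.24) and Kbtbd13 (2.43 ± 0.31). Of the close relatives of Trim63, Trim54 (MuRF3) was higher with 507 CPM in muscle and 280 CPM in heart as medians (log2 fold change 1.53 ± 0.20), and Trim55 (MuRF2) was not called with 24.0 CPM in muscle and 44.0 CPM in heart (-0.31 ± 0.30, edgeR adjusted p = 0.369). Of the F-box relatives of Fbxo32, Fbxo40, which targets Irs1 in mouse muscle, was higher by 0.998 ± 0.17 and Fbxo30 by 0.69 ± 0.29 (log2). Without libraries 10, 11 and 12, Fbxo30 was not called (0.61, edgeR adjusted p = 0.0908).

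Of 24 FoxO family genes and regulators, 10 were higher, 6 lower and 8 not called (median log2 fold change 0.13). Foxo6, another member of the family, was called higher with medians of 2.32 CPM in muscle and 2.00 CPM in heart (log2 fold change 1.23 ± 0.49, edgeR adjusted p = 0.0302). The insulin receptor substrates Irs1 (1.51 ± 0.26) and Irs2 (1.36 ± 0.61, edgeR adjusted p = 0.0499) and the AMPK subunit Prkaa2 (1.48 ± 0.26) had the largest differences beside the FoxO genes. Irs2 rests on libraries 10, 11 and 12: without them its log2 fold change was -0.32 (edgeR adjusted p = 0.552). Akt2 was higher (1.14 ± 0.15) and Akt1 lower (-0.92 ± 0.25), a pair of insulin-activated kinases that phosphorylate FoxO, named after their values were seen. Without libraries 10, 11 and 12 the lower count was 10, and with library totals it was 11. With library totals the lower counts of ligases and of FoxO targets were 4 each.

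Of 24 FoxO targets outside the ligases, 8 were higher, 2 lower and 14 not called (median 0.62). The stress genes Gadd45a (3.68 ± 0.38, edgeR adjusted p = 8.3e-10) and Gadd45b (2.51 ± 0.30) and the translation repressor Eif4ebp1 (2.21 ± 0.46) had the largest differences. Eif4ebp1 had medians of 59.6 CPM in muscle and 60.7 CPM in heart, with up to 575 CPM in muscle and 106 CPM in heart, and a log2 fold change of 1.89 ± 0.46 without libraries 10, 11 and 12. Of 26 autophagy and lysosome genes, 11 were higher, 0 lower and 15 not called (median 0.38), a count that fell to 4 higher and 4 lower with library totals. Tfeb, the master regulator of lysosomal genes, had the largest difference (2.46 ± 0.12, edgeR adjusted p = 1.12e-17), with 61.9 to 186 CPM in muscle and 20.8 to 34.9 CPM in heart. Sqstm1 (1.30 ± 0.27) and Bnip3l (1.00 ± 0.18) were next. The FoxO target and autophagy lists share 6 genes, and Pdk4, Klf15 and Ddit4 are in both the FoxO target and glucocorticoid lists.

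Of 18 glucocorticoid-responsive genes, 7 were higher, 0 lower and 11 not called (median 0.72), with 2 lower when libraries 10, 11 and 12 were left out. Cebpd (2.61 ± 0.56, edgeR adjusted p = 0.000149), Tsc22d3 (2.10 ± 0.22), the GILZ gene, and Errfi1 (1.44 ± 0.44) had the largest differences. Without libraries 10, 11 and 12, Errfi1 was not called (0.61, edgeR adjusted p = 0.145). Of 24 genes of the myostatin and activin pathway, 21 were tested, of which 10 were higher, 7 lower and 4 not called (median 0.17). The 10 include Mstn, which passed the filter on low counts through muscle alone. The closest relative of Mstn, Gdf11, was higher (3.42 ± 0.47, edgeR adjusted p = 1.94e-07), with 1.17 to 43.0 CPM in muscle and 0.280 to 2.82 CPM in heart. The pathway's Smad3 was higher too (2.52 ± 0.26), and Fstl3, a secreted antagonist, was lower (-2.40 ± 0.36). Of 14 denervation-responsive genes, 10 were tested, and 5 of them were near 0 in heart and passed the filter on low counts through muscle alone, so their calls are not counted here. Myog, Chrne and Musk, each at or below 0.160 CPM in every heart library, had muscle medians of 4.83, 6.19 and 2.98 CPM.

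**Figure D4:**
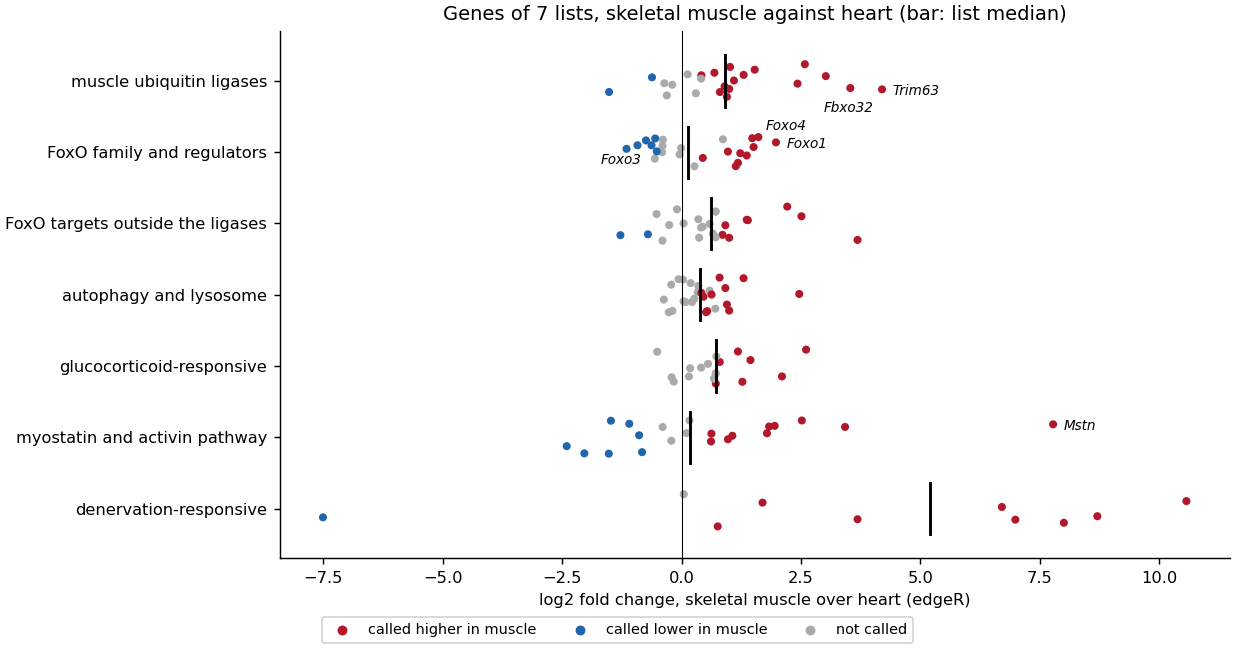
Log2 fold change of muscle over heart (horizontal axis, edgeR) for the genes of 7 lists; red genes were called higher in muscle, blue lower, grey not called, the bar is the list's median and the members are named. The list median is 0.90 for ubiquitin ligases and 0.13 for FoxO family and regulators, and fold changes of denervation genes near 0 in heart depend on the prior count; Trim63, Fbxo32, Foxo1, Foxo4 and Mstn are red and Foxo3 grey.

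Markers of other cell types also differed between muscle and heart. Of the 9 adipocyte genes tested, 5 were higher in muscle and 2 lower, and the 11 listed summed to 289 to 2403 CPM in muscle and 412 to 1356 CPM in heart. Of the 10 fibroblast genes, 6 were lower and 0 higher, with sums of 112 to 904 CPM in muscle and 440 to 1521 CPM in heart, and Tcf21 had a median of 0 in muscle (named after its values were seen). Of the 10 endothelial genes, 9 were lower, with sums of 157 to 657 CPM in muscle and 765 to 1363 CPM in heart. Of 10 leukocyte genes tested, 9 were lower, with sums of 26.8 to 79.8 CPM in muscle and 128 to 253 CPM in heart. Of 7 Schwann and nerve genes tested, 4 were higher, with sums of 21.2 to 248.7 CPM in muscle and 36.2 to 77.2 CPM in heart. Of the 5 satellite cell genes tested, 4 were higher and 1 lower, and of 5 erythroid genes tested 5 were lower. The 4 include Des, with 2069 to 4876 CPM in muscle and 1065 to 3659 CPM in heart. The part of these cells in the members' differences was not tested.

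The lists were also counted by how far their genes varied with Trim63 from library to library. Over the 15 muscle libraries, 5.17% of 11692 genes had a Spearman rho of 0.7 or more with Trim63. Among glucocorticoid-responsive genes it was 13 of 18 (median rho 0.82), among FoxO targets 14 of 24 (median 0.72), among autophagy and lysosome genes 9 of 26 and among the other muscle ubiquitin ligases 5 of 22. Over the 12 libraries without numbers 10, 11 and 12 the share of all genes was 1.54%, and the counts were 8 of 18 glucocorticoid-responsive genes, 8 of 24 FoxO targets, 3 of 26 autophagy genes and 4 of 22 ligases. In heart the share of all genes was 2.61%, with 0 of 18, 2 of 24, 5 of 26 and 3 of 22 for the same lists.

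Of the glucocorticoid list, Klf15 had 17.8 to 271 CPM in muscle and a rho of 0.94 with Trim63 over 15 libraries and 0.89 over 12. Cebpd had 12.6 to 793 CPM in muscle (rho 0.86 and 0.84) and Errfi1 21.6 to 481 CPM (0.86 and 0.73). Tsc22d3, also a classical glucocorticoid target, followed Trim63 less closely with rho 0.57 and 0.27, and Nr3c1, the receptor gene itself, with 0.18 and -0.41 (named after its values were seen). Of the FoxO targets, Gadd45a had rho 0.86 and 0.73 while Gadd45b had 0.53 and 0.08. Of the close relatives of the members, Trim54 (0.75 and 0.80) and Fbxo30 (0.83 and 0.74) varied with Trim63, and Trim55 (-0.05 and -0.29) and Fbxo40 (-0.11 and -0.10) did not reach 0.7. Of the denervation genes, 1 of 9 ranked reached 0.7, namely Gadd45a, and Myog had rho 0.43 and -0.09.

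Genes at the opposite end were found among fibroblast markers, of which 5 of 9 had a rho of -0.7 or less with Trim63 over 15 muscle libraries, Col3a1 at -0.86 the lowest (named after its values were seen). The median rho of the fibroblast markers was -0.74 over 15 libraries and -0.58 over 12. Leukocyte markers had 4 of 10 at -0.7 or less. Among all genes 565 of 11692 were at -0.7 or less. Over the 12 libraries the counts were 1 of 9 fibroblast markers, 1 of 9 leukocyte markers and 205 of 11739 genes. Fewer thus reached -0.7 without libraries 10, 11 and 12, while Col3a1 stayed at -0.80. Igf1, the growth factor that restrains FoxO through Akt, had a rho of -0.93 over 15 and -0.86 over 12 muscle libraries and -0.46 in heart, with 2.04 to 23.5 CPM in muscle (named after its values were seen). The part of fibroblasts and leukocytes in these relations was not tested.

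**Figure D5:**
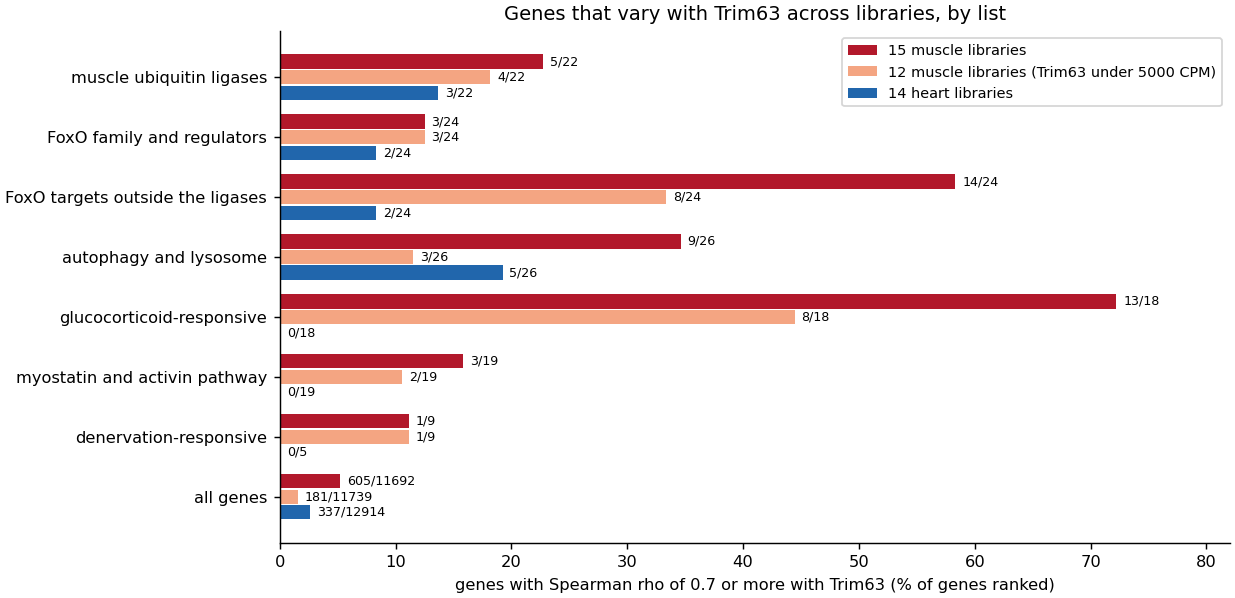
Percent of genes ranked in each list, and of all genes, with a Spearman rho of 0.7 or more with Trim63 (horizontal axis) over 15 muscle libraries (dark red), the 12 of them under 5000 CPM of Trim63 (light red) and 14 heart libraries (blue); labels give the counts. Glucocorticoid-responsive genes have 13 of 18, 8 of 18 and 0 of 18, beside 605 of 11692, 181 of 11739 and 337 of 12914 of all genes.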

How the data were processed

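Total RNA from frozen tissue was sequenced as cDNA libraries, per the labels' protocols. The authors deposited estimated counts per gene (26.8% of values above 0 are not whole, tolerance 1e-06) and a table of normalised values, treated as a signal and used only as an alternative. DESeq2 and GRCm39 are named without version or role in the submitters' processing notes, and no source used here names the aligner or the counter. Use of strand is not named either, so overlapping genes and close paralogs are uncertain.

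Estimated counts were rounded and fitted with edgeR 4.0.16 (TMM, filterByExpr, quasi-likelihood, Benjamini-Hochberg over all genes) in R 4.3.3, once on muscle and heart and once on all 7 tissues. A gene was called at an adjusted p under 0.05. Alternatives used limma 3.58.1 (voom) and DESeq2 1.42.0. Errors are SE of the log2 fold change. Fits were tested on simulated data. CPM used the library total, with a pseudocount of 1 on the log2 scale, and permutation tests used 100000 resamples, two-sided. Levels per length used the union of annotated exons (GENCODE vM21, GRCm38). Motifs were searched in 32851 RefSeq promoters on GRCm38.p6, an earlier build than the authors' GRCm39. The 6 members were matched by gene name; promoters were found for 4 of them.

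Libraries were grouped by the tissue code of their column and all 96 were used. Among 105 muscle and 91 heart pairs of libraries none agreed within sampling noise, with a lowest chi-square per gene of 30.5 in muscle and 9.65 in heart. With 261 entries in 17 lists, all were matched by name. The members and lists were chosen with earlier results of these data known. Named genes are the members, per list the 3 called genes with the largest fold change and relatives of the members, and the 10 or 5 genes with the highest Spearman rho, with exceptions stated; a few genes that the rule names are not reported here. Intervals and limits at a count of 0 (3 counts) cover counting error only. Python 3.11.15, numpy 2.4.6, pandas 2.3.3, scipy 1.17.1 and matplotlib 3.10.9 were used.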

Additional observations from a re-analysis of the deposited data

Results flagged for a closer look

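Trim63 in spleen held 1 library at 0.852 CPM, with the next of the 7 libraries at 0.108 CPM, a gap of 0.873 of the whole range against a limit of 0.568 (Dixon's 95% value for 7). Of 5 members tested in spleen, the only tissue with 4 to 10 libraries, it was 1 flagged. Chance flags about 1 in 20 groups of normally distributed values. Here 4 of the 7 libraries were at 0 and the highest held 11 counts, so that rate need not hold. The value of 0.852 CPM lies below every muscle, heart and kidney library.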

How the results depend on the processing

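No paired analysis was possible because the columns carry no replicate number from the labels. For muscle against heart, Trim63, Fbxo32 and Foxo4 kept their direction and call in 11 alternatives with a test. They kept their direction in the authors' signal, and their call in 29 fits that each left out 1 library. Mstn did so too, but it was near 0 in heart and passed the filter on low counts through muscle alone. Leaving out 1 library gave 3.93 to 4.37 for Trim63, 3.34 to 3.78 for Fbxo32, 1.85 to 2.14 for Foxo1, -0.71 to -0.39 for Foxo3, 1.57 to 1.73 for Foxo4 and 7.61 to 8.32 for Mstn, with no call changed. Foxo1 lost its call in the permutation test (0.79, p = 0.0653). Foxo3 was called lower with library totals (-0.996, edgeR adjusted p = 0.0166), limma-voom (-0.77, adjusted p = 0.0418), the permutation test (-1.23, p = 0.0029) and without libraries 10 to 12 (-0.997, adjusted p = 0.00609). With limma-voom the log2 fold change was 2.98 for Trim63, 2.78 for Fbxo32 and 1.30 for Foxo1. The number of genes called moved to 4641 with an absolute log2 fold change of 1 or more, and the number higher to 2016 with library totals and 6537 with no filter on low counts. With library totals, directions turned for Foxo3 against brain (-0.92), small intestine (-0.36) and spleen (-1.17) and for Foxo1 against spleen (-1.002), while Foxo3 against kidney was called lower (-1.38) and Foxo1 against kidney lost its call (0.63). Without libraries 10 to 12, Irs2 turned (-0.32) and Errfi1 and Fbxo30 lost their calls against heart. With TMM within muscle, the r of Foxo4 turned to 0.35 with Trim63 and to 0.22 with Foxo1, and pairs past the threshold over 15 muscle libraries were 15 of 15, against 12 of 15 in CPM. The causes were not tested. The number of libraries, the pooled genotypes and, for Trim63 and Mstn outside striated muscle, counts near 0 limit the precision. The alternatives without libraries 10 to 12, without Plin4, with Y-linked counts as a covariate and with the authors' signal were chosen after seeing the data.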
